A study of Mus musculus with 16 samples.

Results

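Adult mouse retina was compared with newborn mouse cerebral cortex on the 6 arrays that a further laboratory, called site 2 in the labels, hybridised with RNA of a cross-site study. The 6 arrays were taken by their titles, 3 of retina and 3 of cortex, out of 16 in the series. The other 10 arrays came from the first site and were used here only to ask where site 2 differed from it. The design text gives a pool of C57/B6 adult mouse retinas and a pool of Swiss-Webster cortices of postnatal day 1, from which every array received an aliquot. The first-site sample descriptions name C57/B6 for the cortex donors too, with 350 mice in the retina pool and 19 in the cortex pool, and the site 2 descriptions give only the tissue, the site and a technical replicate number. Organ, age and possibly strain therefore differ together between the groups, no treatment or transgene is named, and the sex of the mice is not given. Since the replicates are aliquots of pooled RNA, every p-value measures the spread between arrays and none measures the spread between animals.

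A mature retina holds rod and cone photoreceptors, whose outer segments turn light into an electrical signal through a G protein, a cyclic GMP phosphodiesterase and a cation channel gated by cyclic GMP. Bipolar, horizontal and amacrine cells process that signal, ganglion cells send it to the brain, and Mueller glia span the layers. The cortex of a newborn mouse is at an earlier stage, with projection neurons still growing axons, interneurons still arriving by migration, and radial glia and dividing precursors still present.

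Values are given as scaled intensities, which are the deposited intensities multiplied so that the median probe set of each array reads 100. Array values are always listed in the order of replicates 1, 2 and 3. A difference is retina minus cortex on the log2(intensity + 16) scale, centred on each array's median, with its standard error (SE) and an adjusted p from limma with Benjamini-Hochberg adjustment over 12422 probe sets, and a probe set is called at an adjusted p under 0.05. That scale understates the change of dim genes. Where every array of the dimmer tissue lay at or under the highest of 13 control probe sets that have no target in the sample (a scaled intensity of 12.6 to 21.3 on these arrays), the size is given as a lower bound.

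Cortex replicate 2 stood apart. Its median deposited intensity was 45.7, against 139 and 216 on cortex replicates 1 and 3 and 122, 104 and 103 on the retina arrays. The added hybridisation controls did not show that gap, with a geometric mean intensity of 557 on cortex replicate 2 and of 564 to 700 on the other 5 arrays. The control probe sets at the 5' and 3' ends of Gapdh, a glycolytic enzyme, had a 5'/3' ratio of 0.603 on cortex replicate 2, against 1.23 and 1.24 on the other cortex arrays and 1.08, 1.11 and 1.17 on the retina arrays. For Actb, beta actin, the ratio was 0.541 on cortex replicate 2 and 0.953 and 0.962 on the other cortex arrays. The retina arrays also had low Actb ratios, of 0.653, 0.565 and 0.575. The log2 values of cortex replicate 2 correlated with those of cortex replicates 1 and 3 at Pearson's r of 0.945 and 0.940 over all probe sets, whereas cortex replicates 1 and 3 correlated at 0.989 and the retina arrays at 0.989 to 0.991. The median SD of a probe set was 0.138 in retina, 0.353 in cortex and 0.126 in cortex without replicate 2. What set this array apart was not tested, and results are given with it and without it.

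**Figure D1:**
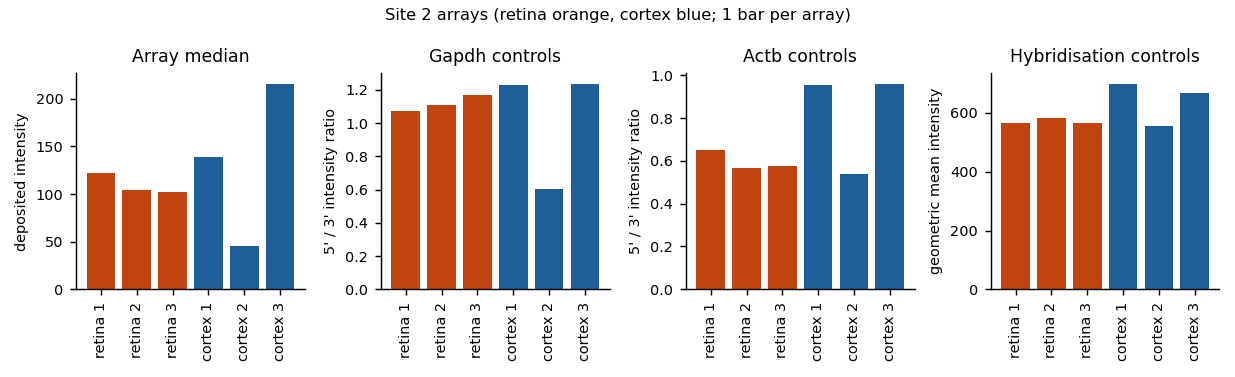
Each bar is 1 array of site 2, with retina in orange and cortex in blue; the panels give the median deposited intensity, the 5'/3' intensity ratios of the Gapdh and Actb controls and the geometric mean intensity of the hybridisation controls. Cortex replicate 2 has the lowest median (45.7) and the lowest Gapdh ratio (0.603), while its hybridisation controls (557) lie close to those of the retina arrays.

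With all 6 arrays, 4043 of 12422 probe sets were called (32.5%), 2069 higher in retina (16.7%) and 1974 lower (15.9%). Without cortex replicate 2, 5946 were called (47.9%), 3300 higher (26.6%) and 2646 lower (21.3%). Of the 4043, 4029 were called again in the same direction without that array, 14 were not, and none changed direction. The 1917 probe sets called only without it were not evenly measurable, because 367 of the 1233 higher ones had no array above the no-target controls, against 2 of the 684 lower ones. The 2020 probe sets that lay at or under those controls on every remaining array had a median difference of 0.43 in that fit, and of 0.00 when the arrays were scaled before 16 was added. Restricted to probe sets measured on every array of the brighter tissue, the calls numbered 2069 higher and 1936 lower with all 6 arrays, and 2771 and 2635 without cortex replicate 2. The median difference over all probe sets was -0.02 with all 6 arrays and 0.15 without cortex replicate 2, so values without that array are read against the second median. Every retina array lay above every cortex array for 23.1% of probe sets, and below every one for 24.4%.

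**Figure D2:**
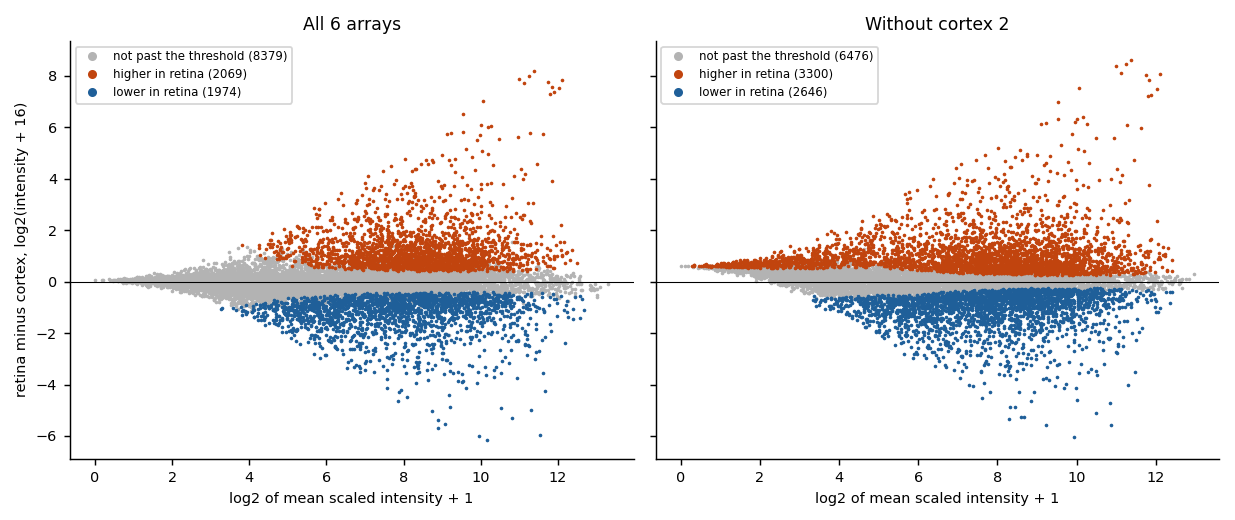
Each point is a probe set, with the log2 of its mean scaled intensity plus 1 on the horizontal axis and retina minus cortex on the log2(intensity + 16) scale on the vertical axis, for all 6 arrays (left) and without cortex replicate 2 (right). Orange and blue points passed the test, 2069 higher and 1974 lower on the left, 3300 and 2646 on the right, where a band of dim probe sets just above 0 is called higher.

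Rod photoreceptor genes were among those furthest above cortex in adult retina, together with the cone genes Gnb3 and Opn1sw and the retinal neuron factor Neurod4. Pde6b, the catalytic beta subunit of the rod phosphodiesterase, had scaled intensities of 4062, 5222 and 5284 in retina and of 2.88, 6.35 and 4.77 in cortex. All 3 cortex arrays lay under the no-target controls, so Pde6b was at least 267-fold higher in retina (limma adjusted p = 8.9e-08) and at least 276-fold without cortex replicate 2. Gnat1, the alpha subunit of rod transducin, read 7727, 8970 and 9755 in retina and 24.1, 25.6 and 20.4 in cortex, a difference of 7.84 ± 0.20 (SE, limma adjusted p = 9.3e-09). The cortex arrays stood slightly above the controls and lay close together, cortex replicate 2 included. Pde6g, the inhibitory subunit that transducin displaces, read 6995, 8440 and 9686 against 42.6, 16.4 and 28.4, and differed by 7.52 ± 0.18. Cnga1, the rod channel gated by cyclic GMP, read 1517, 1452 and 1468 against 2.01, 1.31 and 2.08, at least 81.9-fold higher. In each of these 4 genes the lowest retina array was far above the highest cortex array. All 4 were among the genes chosen for the largest called differences without overlap of arrays. That choice required the separation, so it is no further evidence for them. All 6 measured genes of the rod cascade list passed as higher, with a median difference of 7.02 (7.23 without cortex replicate 2). Over the 8251 genes read from 1 probe set each, 20.3% passed as higher and 17.9% as lower (28.9% and 23.5% without cortex replicate 2), with a median of -0.01 (0.11 without cortex replicate 2).

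Genes that end the rod response or set its calcium feedback were also far higher in retina. Sag, rod arrestin, which blocks the light-activated receptor, read 6396, 7482 and 7945 in retina and 20.4, 29.8 and 21.4 in cortex, a difference of 7.57 ± 0.22. Rcvrn, the calcium sensor recoverin, which restrains the receptor kinase, read 3522, 4691 and 5023 against 5.54, 8.53 and 5.65 and was at least 242-fold higher. Guca1a, a calcium-sensing activator of guanylate cyclase, differed by 7.36 ± 0.16, and Abca4, the transporter that clears retinoid from discs, by 5.79 ± 0.25. Abca4 read 49.3, 120 and 68.1 in cortex, with replicate 2 the highest. Pdc, phosducin, which binds the transducin beta-gamma subunits, read 5626, 7150 and 7777 in retina and 13.4, 19.5 and 17.1 in cortex, where only replicate 2 was above the controls. Its second probe set differed by 0.09 ± 0.20 (limma adjusted p = 0.88), so the probe sets of Pdc disagreed. All 8 measured genes of this list passed as higher, with a median of 6.58 and of 6.67 without cortex replicate 2.

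Genes of the outer segment disc and of transport into it followed. Rom1, a tetraspanin of disc rims, read 3901, 4216 and 4067 in retina and 1.44, 5.25 and 3.19 in cortex, at least 225-fold higher, and its partner Prph2, peripherin, was at least 113-fold higher. The other probe set of Rom1 gave 7.04 ± 0.35. Tulp1, which carries membrane proteins into the outer segment, differed by 7.30 ± 0.18, Reep6, a membrane trafficking protein of rods, by 5.73 ± 0.21, and Prom1, a protein of nascent discs, by 4.58 ± 0.17. Rpgr, a ciliary regulator that many tissues make, went the other way: it read 74.0, 79.5 and 53.6 in retina and 124, 364 and 126 in cortex, a difference of -1.19 ± 0.32 (limma adjusted p = 0.016), and -0.76 ± 0.17 without cortex replicate 2. That call was lost without retina replicate 3, without centring, with quantile normalization, with scaling before 16 was added and without the intensity trend. Of the 8 measured members 7 passed as higher and Rpgr as lower, with a median of 5.16 (5.34 without cortex replicate 2).

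**Figure D3:**
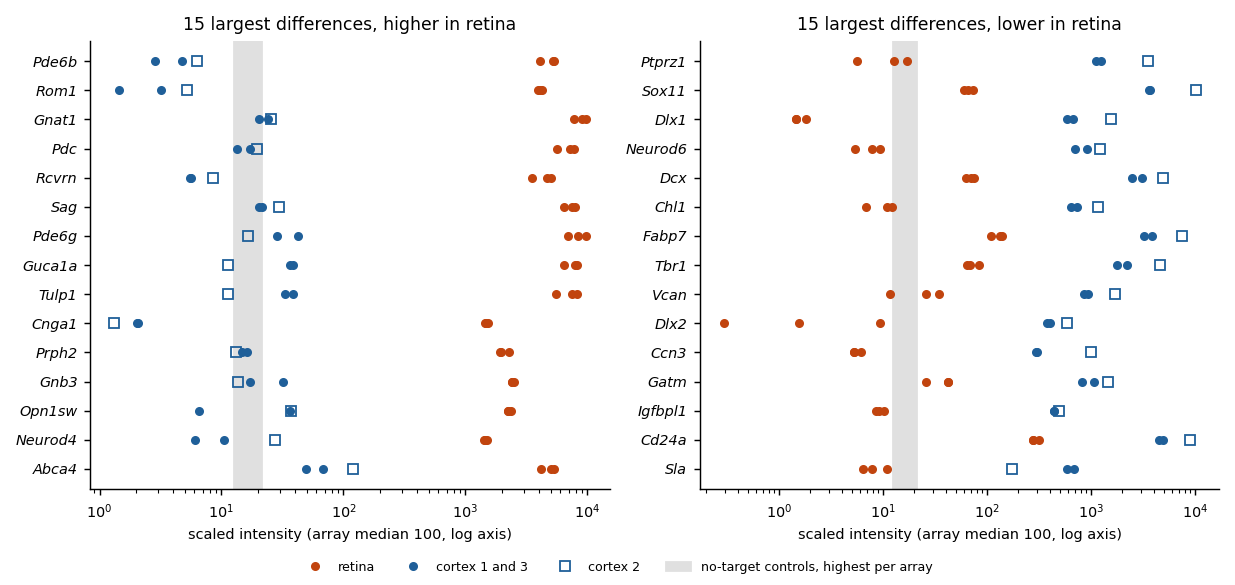
Scaled intensity on a log axis for the 15 genes with the largest called difference in each direction; orange points are the 3 retina arrays, filled blue points cortex replicates 1 and 3, open squares cortex replicate 2, and the grey band spans the highest no-target control of each array. Retina and cortex arrays do not overlap for any of the 30 genes, which the rule for choosing them required, and on the right cortex replicate 2 lies above the other cortex arrays for every gene except Sla, for which it lies below them.

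The upstream sequences of 4 of the 15 genes furthest above cortex are shown because they hold TAATCC, the core letters bound by Crx and Otx2, homeodomain factors of photoreceptors. They are the 250 bases before the RefSeq start site (GRCm38.p6), 5' to 3' on the strand of the gene, and capitals mark TAATCC or, where it lies on the other strand, GGATTA. In Sag, Guca1a, Cnga1 and Abca4 the match began at positions -87, -57, -228 and -58 from the start site.
Sag, chr1:87803430-87803679, plus strand: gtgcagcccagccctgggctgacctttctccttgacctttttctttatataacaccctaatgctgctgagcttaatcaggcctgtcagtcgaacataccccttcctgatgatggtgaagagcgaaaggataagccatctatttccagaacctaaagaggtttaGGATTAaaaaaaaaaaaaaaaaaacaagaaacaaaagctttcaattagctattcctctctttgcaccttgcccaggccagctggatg
Guca1a, chr17:47400607-47400856, minus strand: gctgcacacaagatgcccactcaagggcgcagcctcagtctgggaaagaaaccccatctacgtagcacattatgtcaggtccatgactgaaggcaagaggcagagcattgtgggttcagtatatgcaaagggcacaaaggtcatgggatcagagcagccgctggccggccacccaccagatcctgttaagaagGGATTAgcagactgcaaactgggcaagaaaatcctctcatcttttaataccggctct
Cnga1, chr5:72642753-72643002, minus strand: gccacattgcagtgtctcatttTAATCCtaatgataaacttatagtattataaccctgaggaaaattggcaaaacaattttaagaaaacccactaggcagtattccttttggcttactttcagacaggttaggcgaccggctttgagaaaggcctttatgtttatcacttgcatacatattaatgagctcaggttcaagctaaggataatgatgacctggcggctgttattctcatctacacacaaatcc
Abca4, chr3:122044210-122044459, plus strand: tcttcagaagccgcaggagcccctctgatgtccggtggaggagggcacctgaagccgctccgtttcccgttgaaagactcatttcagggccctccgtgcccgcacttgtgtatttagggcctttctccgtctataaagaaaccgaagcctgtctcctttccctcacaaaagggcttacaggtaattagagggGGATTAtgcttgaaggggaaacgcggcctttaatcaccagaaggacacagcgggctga
RefSeq windows were found for 11 of the 15 genes, 12 windows in all, and 4 of them held the letters on either strand (33.3%), against 429 of the 8412 windows of all genes tested (5.1%). Of the 12 windows of the 15 genes furthest below cortex none held them. CAGATG, or CATCTG on the other strand, an E-box form that proneural factors bind, was in 1 of those 12 windows, that of Fabp7, and in 10.5% of all windows. A match is a description of letters and was not tested as a binding site.

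Transcription factors that drive photoreceptor fate were higher in retina as well. Crx itself read 3562, 3869 and 4257 in retina and 76.4, 51.2 and 61.0 in cortex, a difference of 5.63 ± 0.15 (limma adjusted p = 1.1e-08). Nrl, which specifies rods, read 290, 302 and 342 against 2.16, 17.3 and 23.3 and differed by 3.57 ± 0.36. Rax, an eye field factor kept in photoreceptors, differed by 3.72 ± 0.17, and Neurod4, a basic helix-loop-helix factor of retinal neurons, by 5.80 ± 0.35. Neurod4 was measured above the controls in cortex on replicate 2 only (27.6, against 6.04 and 10.5), and without that array it was at least 83.4-fold higher. Of 11 measured members 8 passed as higher and none as lower, with a median of 3.21. Without cortex replicate 2, 10 passed as higher with a median of 3.15. The added members, named after their values were seen, were Mef2d, a MADS-box factor of neurons, at 0.45, and Six6, an eye field factor, whose retina arrays were above the controls on 1 of 3 arrays.

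Cone genes differed in the same direction. Opn1sw, the short-wave cone opsin, read 2226, 2378 and 2240 in retina and 36.2, 37.0 and 6.53 in cortex, so here replicate 3 was the low cortex array, and the difference was 6.02 ± 0.42. Gnat2, the cone transducin alpha subunit, differed by 5.52 ± 0.23 and Opn1mw, the middle-wave opsin, by 4.77 ± 0.17. Gngt2, the cone transducin gamma subunit, was at least 8.97-fold higher, with every cortex array under the controls. Cnga3, the cone channel subunit, read 40.6, 24.3 and 50.4 in retina and 4.60, 9.19 and 5.28 in cortex, at least 2.04-fold higher (limma adjusted p = 0.028), a call that was lost when any array other than retina replicate 2 or cortex replicate 2 was left out and with a pseudocount of 50. Rxrg, a nuclear receptor that cones share with brain neurons, read 42.2, 63.3 and 75.3 in retina and 135, 42.9 and 131 in cortex. The tissues overlapped through cortex replicate 2 alone, and Rxrg differed by -0.64 ± 0.32 (limma adjusted p = 0.18) with it and by -1.03 ± 0.21 (limma adjusted p = 0.0020) without it. Of 6 cone genes 5 passed as higher, with a median of 4.11, and without cortex replicate 2 the count was 5 higher and Rxrg lower.

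In the inner retina the differences were smaller. Pcp2, a modulator of G proteins in bipolar cells, read 561, 998 and 1099 in retina and 62.5, 74.8 and 86.8 in cortex, a difference of 3.28 ± 0.24. Prkca, the kinase that marks rod bipolar cells, read 419, 417 and 344 against 158, 143 and 155, a difference of 1.29 ± 0.16. Trpm1, the channel of the bipolar light response, differed by 0.57 ± 0.19, and its call (limma adjusted p = 0.045) was lost without any array other than cortex replicate 2. The bipolar list had 4 of 5 members higher, with a median of 1.29, and all 5 without cortex replicate 2.

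Amacrine, horizontal and ganglion cell genes were mostly higher in retina. Calb2, the calcium binding protein calretinin of amacrine cells, read 3338, 3767 and 3804 in retina and 623, 620 and 765 in cortex, a difference of 2.44 ± 0.17. Tfap2a, a transcription factor of amacrine cells, differed by 2.93 ± 0.25, and Slc18a3, the vesicular acetylcholine transporter of starburst cells, was at least 5.50-fold higher. Pax6, the eye field factor that cortical progenitors also make, read 569, 623 and 631 against 132, 181 and 125, and differed by 1.99 ± 0.16. The exception was Stx1a, a syntaxin of conventional synapses, which read 160, 150 and 163 in retina and 1054, 625 and 1138 in cortex, a difference of -2.40 ± 0.26. The amacrine and horizontal list had 12 of 16 members higher and Stx1a lower, with a median of 1.11, and the same counts without cortex replicate 2. For ganglion cells, Sncg, gamma synuclein, read 764, 966 and 784 against 18.9, 11.4 and 17.5 and differed by 4.73 ± 0.19, with 2.65 ± 0.15 on its other probe set. Nefh, the heavy neurofilament subunit, differed by 2.80 ± 0.19 and Thy1, a surface glycoprotein of projection neurons, by 1.73 ± 0.14. The ganglion cell list had 5 of 8 members higher and none lower, with a median of 1.85. In tissue RNA, fewer cells of a type and less RNA per cell cannot be told apart, for this list or any other named here.

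Mueller glia, pigment epithelium and lens genes were found in the retina arrays too. Rlbp1, the retinaldehyde binding protein of Mueller glia, read 2468, 3013 and 3146 in retina and 371, 318 and 412 in cortex, a difference of 2.94 ± 0.18. Car2, carbonic anhydrase, differed by 3.97 ± 0.16 and Clu, the secreted chaperone clusterin, by 2.66 ± 0.19. Glul, glutamine synthetase, read 1121, 1031 and 787 against 123, 500 and 128, with cortex replicate 2 apart, and differed by 2.24 ± 0.39 with that array and 2.80 ± 0.15 without it. The other Glul probe set differed by -0.10 ± 0.17. The list had 7 of 10 members higher and none lower, with a median of 2.37, and 8 without cortex replicate 2. Aqp4, a water channel of Mueller glia and astrocytes, read 292, 291 and 307 in retina and 317, 470 and 280 in cortex, and the arrays overlapped.

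The pigment epithelium lies behind the photoreceptors and the lens in front of the retina. Rgr, an opsin of the pigment epithelium and Mueller glia, read 213, 266 and 257 in retina and was under the controls on every cortex array, at least 13.5-fold higher, and Rdh5, its retinol dehydrogenase, differed by 3.13 ± 0.27. Tyrp1, an enzyme of melanin synthesis, read 84.3, 72.2 and 69.9 and was at least 4.16-fold higher, although its 3 other probe sets differed by 0.10 to 0.45 and did not pass. Of these, only the probe set at 0.45 had arrays above the controls, 2 of retina. Without cortex replicate 2 all 3 passed as higher, by 0.54 to 0.77. In that fit probe sets at or under the controls had a median difference of 0.425. Of 11 pigment epithelium genes 8 passed as higher and Ttr, the carrier transthyretin, as lower, and their summed scaled intensity ran from 1912 to 2175 in retina and from 838 to 1010 in cortex. Cryba1, a beta crystallin, read 401, 494 and 647 against 4.46, 5.25 and 3.80, at least 27.9-fold higher, and Cryaa, alpha A crystallin, read 529, 652 and 555 against 44.1, 56.0 and 26.0, a difference of 3.45 ± 0.26. Of 11 lens genes 8 passed as higher and none as lower, with a median of 2.88 and a summed level of 2471 to 3080 in retina and 527 to 618 in cortex. Crybb2, another beta crystallin, was read from a probe set that differed by -0.03 ± 0.18, while its other probe set differed by 4.32 ± 0.33. The part of lens or pigment epithelium tissue in other differences was not tested.

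Genes of growing cortical neurons were among the 15 furthest below cortex. Sox11, a transcription factor of immature neurons, read 73.0, 65.1 and 59.9 in retina and 3585, 10164 and 3699 in cortex, a difference of -5.96 ± 0.28 (limma adjusted p = 2.6e-07) and of -5.57 ± 0.11 without cortex replicate 2. Dcx, doublecortin, the microtubule protein of migrating neurons, read 63.0, 75.0 and 70.7 against 3117, 4903 and 2458, a difference of -5.29 ± 0.19. On cortex replicate 2 both stood above the other cortex arrays, although the tissues remained far apart. Both genes were chosen for large called differences without overlap of arrays, which required that separation. Cd24a, a surface glycoprotein of young neurons, differed by -4.24 ± 0.19. Igfbpl1, a secreted protein of the IGF binding family, was at least 26.7-fold lower, and at least 25.6-fold without cortex replicate 2. The migration list had 10 of 18 members lower, with a median of -1.18, and 13 lower without cortex replicate 2, with a median of -1.32. The members that went the other way were 2 with all arrays, led by Vldlr, a reelin receptor, which read 202, 158 and 157 in retina and 50.5, 44.0 and 56.9 in cortex, a difference of 1.49 ± 0.17.

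Genes of cortical projection neurons were lower in retina or not called, with none higher. Neurod6, a basic helix-loop-helix factor of these cells, read 5.32, 9.40 and 7.80 in retina, all under the controls, and 703, 1209 and 916 in cortex, at least 53.8-fold lower in retina. Tbr1, a T-box factor of deep-layer neurons, read 68.5, 84.3 and 63.8 against 2212, 4562 and 1788, a difference of -4.90 ± 0.24. Mef2c, an activity-regulated factor, read 230, 211 and 203 against 2817, 2834 and 2581, and its difference of -3.56 ± 0.14 was the same to within its SE without replicate 2. Foxp1, a forkhead factor, differed by -3.24 ± 0.17, and Nrgn, neurogranin, a calmodulin binding protein of dendrites, by -3.56 ± 0.16. Of 17 members 13 passed as lower (14 without cortex replicate 2), with a median of -2.26 (-2.31 without it).

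Genes of the growth cone were lower in retina for 23 of 29 members. Gap43, a membrane protein of growing axons, read 542, 619 and 491 in retina and 3762, 7575 and 3327 in cortex, a difference of -2.99 ± 0.22. Mapt, the axonal microtubule protein tau, read 1159, 1350 and 1351 against 5319, 14388 and 4410, a difference of -2.39 ± 0.31 that became -1.97 ± 0.11 without cortex replicate 2. Marcksl1, an actin-binding protein, differed by -2.44 ± 0.14 and Nrp1, a semaphorin receptor, by -3.54 ± 0.26. Chl1, an adhesion molecule of the L1 family, was at least 47.8-fold lower, and at least 40.2-fold without cortex replicate 2. The other Chl1 probe set (0.00 ± 0.47) lay at or under the controls on every array, so it gives no measured difference. The list's median was -1.52, and 25 members were lower without cortex replicate 2 (median -1.63). Its single member on the other side, Map1b, was dim, at 37.8, 34.6 and 58.0 in retina and 23.0, 4.16 and 13.9 in cortex, and its call was lost under 6 alternatives.

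Interneuron and progenitor genes passed more often as lower than as higher in retina. Over all genes 17.9% passed as lower and 20.3% as higher, and the 3 higher members of each list were near that share. Dlx1, a homeodomain factor of forebrain interneurons, read 1.80, 1.44 and 1.46 in retina and 583, 1564 and 666 in cortex, at least 49.5-fold lower, and Dlx2, its neighbour in function, was at least 26.1-fold lower. Without cortex replicate 2 these bounds were 36.4-fold and 22.7-fold. Lhx6, which directs interneurons born in the medial ganglionic eminence, differed by -2.94 ± 0.20 and Sst, the peptide somatostatin, by -2.57 ± 0.18. Meis1, a homeodomain cofactor, was higher in retina by 1.36 ± 0.25. Of 15 interneuron genes 8 passed as lower and 3 as higher (10 and 3 without cortex replicate 2), with a median of -1.25. Among progenitor genes, Fabp7, which carries fatty acids in radial glia, read 108, 140 and 132 in retina and 3835, 7522 and 3257 in cortex, a difference of -4.99 ± 0.22. Ptprz1, a receptor phosphatase of radial glia, was at least 99.4-fold lower, against -1.60 ± 0.32 and -2.86 ± 0.27 on its other probe sets. Vcan, the matrix proteoglycan versican, differed by -4.86 ± 0.25. The progenitor list had 8 of 15 members lower and 3 higher, with and without cortex replicate 2, and the higher ones were Prom1, Pax6 and Hes1, a Notch target.

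Cell division genes were lower in retina for 22 of 45 members and higher for Fen1, a flap endonuclease of DNA replication and repair (0.87 ± 0.18). Ccnd2, a G1 cyclin, read 5.24, 3.26 and 3.80 in retina and 177, 203 and 157 in cortex, at least 10.4-fold lower (9.75-fold without cortex replicate 2). Rrm2, which helps make deoxynucleotides in S phase, read 17.4, 17.6 and 16.8 against 292, 246 and 245, a difference of -3.09 ± 0.18. Mki67, a chromosome coat protein of cycling cells, was at least 5.76-fold lower and Top2a, the topoisomerase of dividing cells, at least 4.06-fold lower, both with every retina array under the controls. Without cortex replicate 2 these bounds were 5.67-fold and 3.84-fold. The other Mki67 probe set, above the controls on every array, differed by -0.56 ± 0.24 and did not pass (limma adjusted p = 0.11). On these 4 genes cortex replicate 2 lay with or near the other cortex arrays. The median of the list was -0.55, and the counts without cortex replicate 2 were 23 lower and 4 higher.

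**Figure D4:**
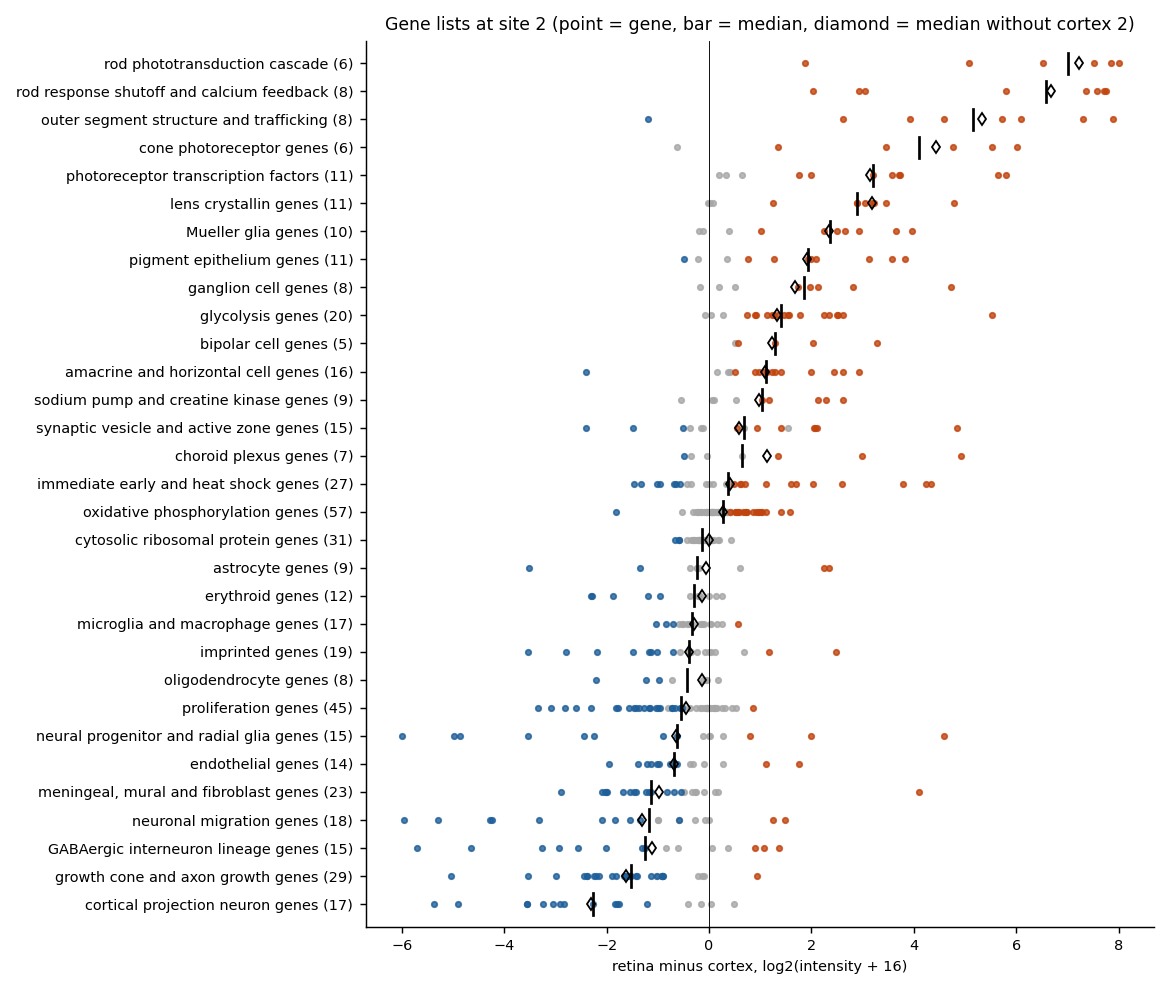
Each point is a gene, placed by its retina minus cortex difference on the log2(intensity + 16) scale with all 6 arrays; orange points passed as higher, blue as lower and grey did not pass. The bar is the list's median and the diamond its median without cortex replicate 2, and the number of measured members follows each name; rod lists lie furthest right (median 7.02) and projection neuron genes furthest left (-2.26).

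Markers of other cells that either tissue could hold were examined next, beside 20.3% of all genes called higher and 17.9% called lower. For fibroblasts and mural cells of the meninges and vessels, 15 of 23 genes were lower in retina, with a median of -1.13. Dcn, the matrix proteoglycan decorin, read 36.4, 35.6 and 37.2 in retina and 332, 431 and 353 in cortex, a difference of -2.89 ± 0.15, and the collagen genes Col3a1 and Col4a1 differed by -2.10 ± 0.22 and -2.04 ± 0.29. Vtn, the adhesion protein vitronectin, which photoreceptors also make, read 3339, 3421 and 3748 in retina and 192, 169 and 213 in cortex and was higher by 4.10 ± 0.16. Haemoglobin genes were lower in retina: Hba-a1, alpha globin, read 629, 660 and 640 against 3023, 4167 and 2846 (-2.30 ± 0.14), and Hbb-b2, beta globin, 138, 182 and 137 against 893, 656 and 885 (-2.28 ± 0.21). Of 12 erythroid genes 5 passed as lower, and the summed level was 1873 to 2137 in retina and 5073 to 5856 in cortex. Of 14 endothelial genes 8 were lower, among them Cdh5, the cadherin of vessel junctions (-1.95 ± 0.24). The 2 higher ones, a share below that of all genes, included Flt1, a VEGF receptor (1.76 ± 0.19). The other probe set of Flt1 differed by 0.17 ± 0.21.

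Glial and immune markers were called in both directions. Over all genes 20.3% passed as higher and 17.9% as lower. The lower count for microglia and both astrocyte counts were near these shares. Of 17 microglia and macrophage genes 3 passed as lower and 1 as higher, with a median of -0.34 and a summed level of 1818 to 1887 in retina and 2015 to 2409 in cortex. The higher gene, Ctss, had overlapping arrays, and its call was lost under 10 alternatives. Laptm5, a lysosomal protein of blood-derived cells, differed by -1.04 ± 0.17. Oligodendrocyte genes passed for 3 of 8, all lower, led by Cldn11, the claudin of myelin, at least 4.97-fold lower on this probe set and -0.10 ± 0.33 on the other. The other Cldn11 probe set was above the controls on only 1 retina and 2 cortex arrays. Mbp, a main myelin protein, read 254, 323 and 352 in retina and 253, 341 and 244 in cortex, and the arrays overlapped. The other Mbp probe set read 61.6, 63.6 and 66.5 against 103, 139 and 104, without overlap, and differed by -0.70 ± 0.17, a call as lower (limma adjusted p = 0.0105). Astrocyte genes passed for 2 in each direction out of 9: Gja1, connexin 43, read 118, 153 and 107 against 1179, 3159 and 1142 (-3.52 ± 0.29), and Aldoc, the brain aldolase, read 3527, 4218 and 4729 against 824, 883 and 754 (2.34 ± 0.15). Choroid plexus genes passed for 3 of 7 as higher, led by Aqp1, a water channel also made in the eye, which read 995, 1011 and 1014 against 22.2, 4.16 and 23.5 (4.92 ± 0.14). Its other probe set was dim, with every retina array under the controls. That probe set differed by -0.87 ± 0.31 and did not pass (limma adjusted p = 0.0585). Without cortex replicate 2 it passed as lower (-0.65 ± 0.24, limma adjusted p = 0.0497). The plexus carrier Ttr read 350, 488 and 493 in retina and 622, 721 and 575 in cortex, a difference of -0.50 ± 0.16 (limma adjusted p = 0.040), and its call was lost under 11 alternatives, among them leaving out any array other than cortex replicate 2. The part of these other cells in the tissue differences was not tested.

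Most glycolysis genes were higher in retina. Hk2, a hexokinase that opens glycolysis, read 2535, 2850 and 3037 in retina and 45.4, 42.7 and 47.3 in cortex, a difference of 5.53 ± 0.14 (limma adjusted p = 9.3e-09). The other Hk2 probe set (0.16 ± 0.55) lay at or under the controls on every array, so it gives no measured difference. Pfkl, the phosphofructokinase subunit of the committed step, read 3091, 3647 and 3883 against 629, 601 and 636 (2.50 ± 0.16). Slc2a1, the glucose transporter GLUT1, differed by 2.52 ± 0.27 and Eno2, the neuronal enolase, by 2.61 ± 0.19. Of 20 glycolysis genes 17 passed as higher and none as lower, with a median of 1.40. Hk1, the other hexokinase named, read 1559, 1845 and 2028 against 2858, 1084 and 2319, so that cortex replicate 2 alone was under the retina arrays. Hk1 differed by -0.07 ± 0.35 (limma adjusted p = 0.96) with that array and by -0.58 ± 0.13 (limma adjusted p = 0.0039) without it.

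Mitochondrial and ion-pumping genes showed smaller differences. Of 57 oxidative phosphorylation genes 19 passed as higher and Cox6a2, a muscle-type oxidase subunit, as lower (-1.82 ± 0.22), with a median of 0.27. That share of higher genes compares with 20.3% of all genes, and without cortex replicate 2 the counts were 26 and 2 against 28.9% of all genes higher. Cox17, a copper chaperone of cytochrome oxidase, read 1527, 1714 and 1447 against 454, 665 and 463 (1.59 ± 0.15). Fxyd1, a regulator of the sodium pump, differed by 2.29 ± 0.16 and Ckmt1, the mitochondrial creatine kinase, by 2.13 ± 0.15. The other Ckmt1 probe set differed by 0.15 ± 0.25 (limma adjusted p = 0.77), with overlapping arrays. The pump and creatine kinase list had 5 of 9 members higher and none lower. Ribosomal protein genes passed for 3 of 31, all lower, below the background share.

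Synaptic, stress-response and imprinted genes were called in both directions, beside 20.3% of all genes called higher and 17.9% called lower. Stx3, the syntaxin of ribbon synapses, read 1648, 1726 and 1695 in retina and 65.7, 17.3 and 47.6 in cortex, a difference of 4.85 ± 0.20, whereas Stx1a, of conventional synapses, was lower. The synaptic list had 7 of 15 higher and 3 lower. Nsf, the ATPase that recycles fusion complexes, read 2569, 2529 and 2467 against 946, 254 and 767, and its difference of 2.12 ± 0.42 became 1.49 ± 0.11 without cortex replicate 2. Ier3, an early response gene, read 1696, 1824 and 1794 against 77.4, 67.8 and 72.8 (4.34 ± 0.14), and the inducible heat shock gene Hspa1b differed by 4.25 ± 0.16. Fos, an immediate early transcription factor, differed by 2.60 ± 0.17, while its other probe set gave 0.03 ± 0.39 with only 1 array of each tissue above the controls. Of 27 immediate early and heat shock genes 12 passed as higher and 7 as lower, among the latter Klf6, a zinc finger factor (-1.48 ± 0.14). Of 19 imprinted genes 8 passed as lower and 2 as higher, led by Nnat, neuronatin, at 578, 465 and 388 against 5466, 6927 and 5035 (-3.54 ± 0.17), while Impact, a translation regulator, was higher by 2.47 ± 0.25.

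Cortex replicate 2 decided the call of many well-measured probe sets. Called only without it were 704 higher ones with every retina array above the controls. So were 675 lower ones with every remaining cortex array above the controls. The genes given here were low on cortex replicate 2, and all but Pou3f3 were called only without it. Kif5c, a kinesin motor of neurons, read 144, 119 and 166 in retina and 517, 55.8 and 463 in cortex. Kif5c differed by -0.82 ± 0.60 (limma adjusted p = 0.38) with all arrays and by -1.74 ± 0.14 (limma adjusted p = 2.9e-06) without replicate 2. Cdk5r1, the activator of the neuronal kinase Cdk5, read 209, 183 and 187 against 679, 126 and 673 and moved from -0.99 ± 0.52 to -1.79 ± 0.11. In both, cortex replicate 2 lay under the retina arrays and the other cortex arrays far above them. Kif1a, the kinesin of synaptic vesicle precursors, read 564, 468 and 609 against 920, 154 and 846, and its difference changed sign, from 0.10 ± 0.56 (limma adjusted p = 0.97) to -0.74 ± 0.12 (limma adjusted p = 0.00047). Syt1, the calcium sensor of vesicle release, read 2233, 2876 and 2383 against 1676, 269 and 1292 and went from 1.55 ± 0.57 (limma adjusted p = 0.063) to 0.69 ± 0.14 (limma adjusted p = 0.0019). Pou3f3, a POU factor of upper-layer neurons, read 32.4, 27.7 and 33.2 against 533, 90.6 and 541, and passed with the array (-2.84 ± 0.54) and without it (-3.65 ± 0.14). These 5 genes were the lowest on cortex replicate 2 relative to the other cortex arrays, among genes above the controls on all 3.

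The opposite pattern appeared in genes that, among the cortex arrays, were bright on replicate 2 alone. H2aj, a histone variant, read 21.4, 350 and 32.5 in cortex and 27.1, 28.5 and 16.1 in retina, and Polr2c, an RNA polymerase II subunit, read 217, 1895 and 237 against 178, 172 and 191. Neither passed with all arrays, and without replicate 2 H2aj differed by 0.01 ± 0.22 and Polr2c by -0.35 ± 0.12 (limma adjusted p = 0.034). Pptc7, a mitochondrial phosphatase, read 1140, 1349 and 1325 in retina and 477, 1956 and 503 in cortex, and Stx4a, a syntaxin of the plasma membrane, read 396, 445 and 395 against 149, 490 and 160. Both passed as higher only without that array, Pptc7 by 1.29 and Stx4a by 1.31. On the lower side the probe sets gained without it included 1 of Ptbp2, a neuronal splicing regulator (431, 438 and 444 against 1553, 339 and 1396). Another was 1 of Plxna1, a semaphorin receptor (98.0, 101 and 110 against 359, 78.1 and 363). Both were low on cortex replicate 2, as Kif5c and Cdk5r1 were. Probe sets were ordered by the mean signal of the other cortex arrays and cut into 10 equal bins. The median deviation of cortex replicate 2 was 1.46 in bin 1, the dimmest, on the log2(intensity + 16) scale. It was 0.15 in bin 5 and -0.19 in bin 9. Because 16 was added to unscaled intensities, dim probe sets of an array with a low median lie high on this scale. The bin 1 value therefore measures no behaviour of the array. The other Ptbp2 probe set was called lower with all arrays too (-1.08 ± 0.18, limma adjusted p = 0.00095). The list members Mip and Epb42, which entered the calls without it and encode a lens water channel and a red cell membrane protein, had no retina array above the controls, and they were named after their values were seen.

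Site 2 gave the same direction as the first site for all 30 genes with the largest differences, each of which was also called there, and the pools are shared between sites. The difference between tissues depended on the site for 418 probe sets (3.36%), 257 with retina relatively higher at site 2 (2.07%) and 161 with it lower (1.3%), and for 671 (5.4%) without cortex replicate 2, of which 387 were among the 418 in the same direction. The split was 13 and 21 without centring and 215 and 230 with quantile normalization. Without retina replicate 2 or 3 of site 2 the total was 213 or 212, and without cortex replicate 1 of site 2 it was 661. Among the 30 genes, Gnb3, the cone transducin beta subunit, read 2405, 2414 and 2513 in retina and 17.2, 13.6 and 32.2 in cortex at site 2 and had an interaction of 1.60 (limma adjusted p = 0.00020). Gatm, an enzyme of creatine synthesis, read 26.1, 41.7 and 41.9 against 814, 1444 and 1068 and had an interaction of -1.28 (limma adjusted p = 0.0010).

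**Figure D5:**
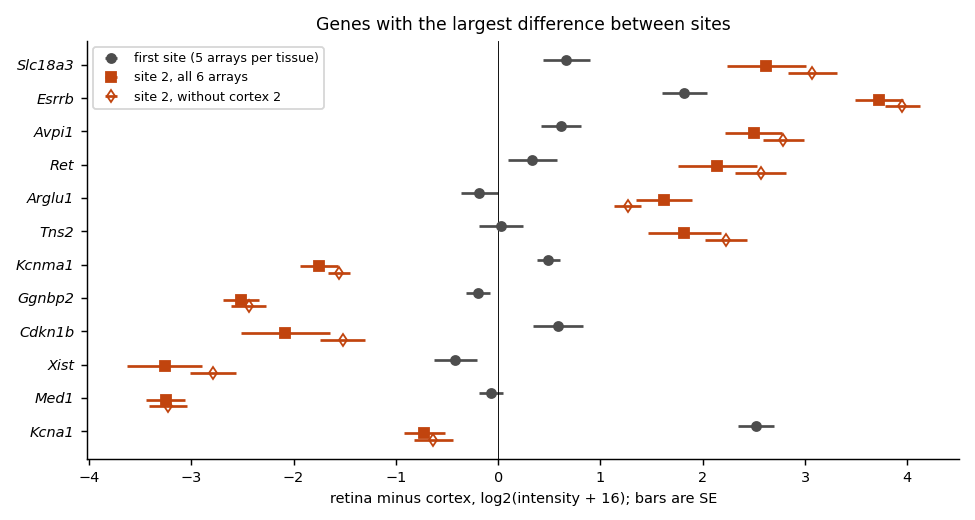
Retina minus cortex on the log2(intensity + 16) scale with its SE for the 6 genes per direction with the largest called difference between sites: grey circles are the first site, filled squares site 2 with all 6 arrays and open diamonds site 2 without cortex replicate 2. Leaving out cortex replicate 2 moves the site 2 values little beside their distance from the first site, as for Med1 (-3.25 with it and -3.23 without it). Slc18a3, Esrrb, Avpi1, Ret and Tns2 had every site 2 cortex array under the controls and Cdkn1b every retina array, so the size of their differences was not measured.

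The site 2 values behind the largest differences between sites were as follows. Med1, a subunit of the Mediator complex, read 61.9, 54.4 and 33.4 in retina and 550, 700 and 567 in cortex, and Ggnbp2, a gametogenetin binding protein, 23.3, 21.0 and 20.9 against 164, 237 and 195. For both the tissues were far apart and cortex replicate 2 was the highest cortex array. At the first site Med1 differed by -0.07 and Ggnbp2 by -0.20. Kcnma1, the large-conductance potassium channel, read 328, 358 and 409 against 1074, 1933 and 1032 (-1.75 ± 0.19), while Kcna1, a voltage-gated potassium channel, read 39.0, 55.4 and 57.4 against 87.8, 107 and 84.6 (-0.72 ± 0.20). At the first site Kcnma1 differed by 0.49 and Kcna1 by 2.52, both in the opposite direction. Xist, the RNA of X inactivation, read 59.8, 24.9 and 36.9 in retina and 332, 1132 and 356 in cortex, a difference of -3.26 ± 0.37 with cortex replicate 2 and -2.79 ± 0.23 without it, against -0.42 at the first site. In the other direction, Arglu1, a splicing-associated protein, read 1320, 1321 and 1658 against 638, 301 and 495 (1.62 ± 0.27), against -0.18 at the first site. Avpi1, a gene induced by vasopressin, Ret, a neurotrophic factor receptor, and Tns2, a focal adhesion protein, had every cortex array under the controls and were at least 7.09-fold, 3.79-fold and 3.22-fold higher in retina at site 2. Esrrb, an orphan nuclear receptor of rods, read 391, 298 and 290 against 10.4, 6.35 and 12.5 and was at least 17.9-fold higher. For these genes at the controls the size of the interaction was not measured.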

How the data were processed

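RNA of adult retina and newborn cortex was hybridised to Affymetrix mouse arrays, and the authors deposited 1 linear intensity per probe set and array. How probe signals were summarised, corrected for background or scaled is not given in the sources used here. Array medians differed, so values were not taken as scaled to a common level. No test used the 66 control probe sets. Of the 12422 others, 10833 had 1 symbol in the platform annotation, 396 several and 1193 none, and 10817 of the single symbols were found in RefSeq (GRCm38.p6).

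The deposited intensities were converted to log2(intensity + 16), centred on each array's median and tested with limma 3.58.1 in R 4.3.3 (lmFit, eBayes with an intensity trend, Benjamini-Hochberg adjustment over all probe sets, threshold 0.05). Site 2 was fitted on its own 6 arrays, and the difference between sites as an interaction over all 16. The steps were tested on simulated data in which all arrays had the same spread for a probe set. No simulated array stood apart as cortex replicate 2 does, so that test cannot speak for such an array. The arrays of a tissue are technical replicates of 1 pool, so p-values measure only the spread between arrays. The number of arrays limits the precision.

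A gene was read from its probe set with the highest mean over the 6 arrays. Genes were named by rule: the 15 largest called differences per direction without overlap of arrays, up to 5 called members of each list and its member most against the list, the 6 largest interactions per direction, and the 5 genes per direction whose call or level depended most on cortex replicate 2. The 6 brightest genes of each tissue, also in the rule, are not given, because levels of different probe sets are not comparable. The gene lists and the comparison were chosen with earlier results of these data known. The floor, the highest of 13 no-target controls, was chosen after the data were seen, because other such controls were bright at the first site. A lower bound of a fold sets the brighter tissue's mean log2 level against the dimmer tissue's mean of, per array, the higher of the floor and the probe set's own value.

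The alternatives tried were quantile normalization, pseudocounts of 1 and 50, no centring, scaling before the pseudocount, a filter on dim probe sets, no intensity trend, array quality weights, a replicate block, all 16 arrays in 1 fit and each array left out. Scaling before the pseudocount for the interaction, or together with leaving out cortex replicate 2, was chosen after seeing the data.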

Additional observations from a re-analysis of the deposited data

Results flagged for a closer look

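The retina minus cortex difference itself differed between site 2 and the first site for 418 probe sets by the interaction test. With retina relatively higher at site 2, the interactions (log2, limma over 16 arrays) were 1.95 for Slc18a3, 1.90 for Esrrb, 1.88 for Avpi1, 1.81 for Ret, 1.80 for Arglu1 and 1.79 for Tns2. Of these genes all but Arglu1 had every site 2 cortex array at or under the no-target controls, so their fitted values depend on the pseudocount, give no measured size and have no order. With retina relatively lower, they were -3.24 for Kcna1, -3.18 for Med1, -2.84 for Xist, -2.66 for Cdkn1b, -2.32 for Ggnbp2 and -2.24 for Kcnma1. Cdkn1b, a cyclin-dependent kinase inhibitor, had every site 2 retina array under the controls, so its fitted value is no measured size either. At site 2 its level in cortex exceeded that in retina at least 4.12-fold, while its other probe set differed by -0.06.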

How the results depend on the processing

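Without centring the site 2 calls numbered 781 (347 higher, 434 lower) and the site interactions 34 (13 and 21). Array quality weights gave 8057 calls (4448 and 3609) and 168 higher interactions. Interactions without the intensity trend were 255, of them 135 higher, and a pseudocount of 50 left 155 higher. Leaving out 1 array gave 3062 to 5946 calls at site 2 (1533 to 3300 higher, 1508 to 2646 lower) and 212 to 671 interactions (102 to 455 higher, 109 to 239 lower), with the highest values without cortex replicate 2 in all but the lower interactions. Kif1a changed from 0.10 to -0.80 with array weights, -0.74 without cortex replicate 2 and -0.68 with scaling as well. Leaving out each array in turn took it from -0.74 to 0.55. The causes were not tested. The other settings kept the counts within 1.5 times. None of the 30 genes with the largest differences lost its call under any alternative run. They were chosen for large called differences on these same arrays, so this cannot speak for other calls. Of the 161 called named genes, 45 were lost without centring and 1 to 16 under the other settings that tested all of them. The filter on dim probe sets tested 129 of them and lost 0. None of the called named genes reversed.

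Replicate numbers did not pair the arrays, since the deviations of same-numbered arrays correlated at 0.0358, 0.0802 and 0.0113. A replicate block gave 4335 calls at site 2 and 347 interactions.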
